A study of Homo sapiens with 5 samples.

Results

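The genes that define a hepatocyte were examined for TEAD4 binding in a cell type that is not a hepatocyte, the hepatic stellate cell. The set holds 37 genes, out of 20007 protein-coding gene symbols in the GENCODE release 44 annotation of hg38, and was chosen by function. It covers plasma transport proteins and apolipoproteins, coagulation and complement factors, enzymes of amino acid, glucose, drug and bile acid metabolism, surface receptors and transporters, and the transcription factors HNF4A, FOXA1 and FOXA2. A TEAD4 peak was counted for a gene when its summit lay in the gene body or within 50 kb of any annotated transcription start site (TSS) of the gene.

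All samples came from LX-2, an established line of human hepatic stellate cells that models their activated, myofibroblast-like state, after treatment with the solvent DMSO alone. TEAD4 ChIP-seq was performed on 3 samples, and 2 samples of input chromatin served as controls, of which the first was common to replicates 1 and 2. The authors left out replicate 2, and the single list of 21113 peaks analysed here combines replicates 1 and 3. It gives each peak a position, a summit, a signal value and a score, but no value per sample, so that neither the depth nor the spread between replicates is known for any peak described here, and no test between samples was possible.

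TEAD4 is a DNA-binding factor that recruits the coactivators YAP and TAZ, the effectors of the Hippo pathway, which promote stellate cell activation and matrix production during liver fibrosis. Hepatocytes hold their identity through a network of transcription factors in which HNF4A, the FOXA factors, HNF1 and C/EBP factors bind the promoters and enhancers of secreted plasma proteins and metabolic enzymes. Most of these genes are silent or low in other cell types, and expression was not analysed here, so peaks were not related to it.

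TEAD4 summits lay near a smaller share of hepatocyte identity genes than of other genes. A summit was assigned to 10 of the 37 genes (27.0%, Wilson 95% interval 15.4 to 43.0%), against 56.2% of all protein-coding genes and 11235 of the 19970 others (56.3%, interval 55.6 to 56.9%). Those 10 were the plasma proteins AHSG, HP, HPX, SERPINA1 and APOH, the coagulation and complement factors F2 and C3, the tyrosine catabolic enzyme HPD, the cytochrome P450 CYP1A2 and the lectin receptor ASGR1. Near promoters, within 2.5 kb of a TSS, a summit was found for HPX and HPD only, 2 of 37 (5.41%, interval 1.495 to 17.7%). The share was 16.7% of all protein-coding genes, which lies within that interval, and 3330 of the 19970 others. Measured from the single canonical TSS of each gene, HPD remained as the only member with a summit within 2.5 kb, against 2196 of the 19970 other genes. Summits inside the gene body were found for AHSG, HPX, HPD and CYP1A2 (10.8%, interval 4.29 to 24.7%), against 4995 of the 19970 other genes. These intervals cover counting error over genes only, and neighbouring genes can share a peak.

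The distance to the nearest summit gave the same order, but it uses the same summits and TSSs and is not separate support. Its median was 98.7 kb for the 37 genes (95% interval of the median 68.3 to 181.4 kb) and 39.4 kb for the other genes (38.02 to 40.52 kb). Of the 37, 27 lay farther from a summit than the median of the others, and these were the 27 without an assigned peak. A summit was more than 100 kb away for 18 members (48.6%, against 28.2% of other genes) and more than 200 kb away for 12 (32.4%, against 13.7%). At the far end, 7 members had no summit within 300 kb (18.9%, against 7.73%). These were TTR, FGA, FGB, FGG, CPS1, CYP2E1 and UGT2B7. Distances were counted per gene, and FGA, FGB and FGG are neighbours measured to the same summit, so they are not separate observations. At the limit of 50 kb, HP at 36.8 kb was the member farthest from a summit among those counted, and APOA2, at 50.267 kb, was the closest of those not counted.

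**Figure D1:**
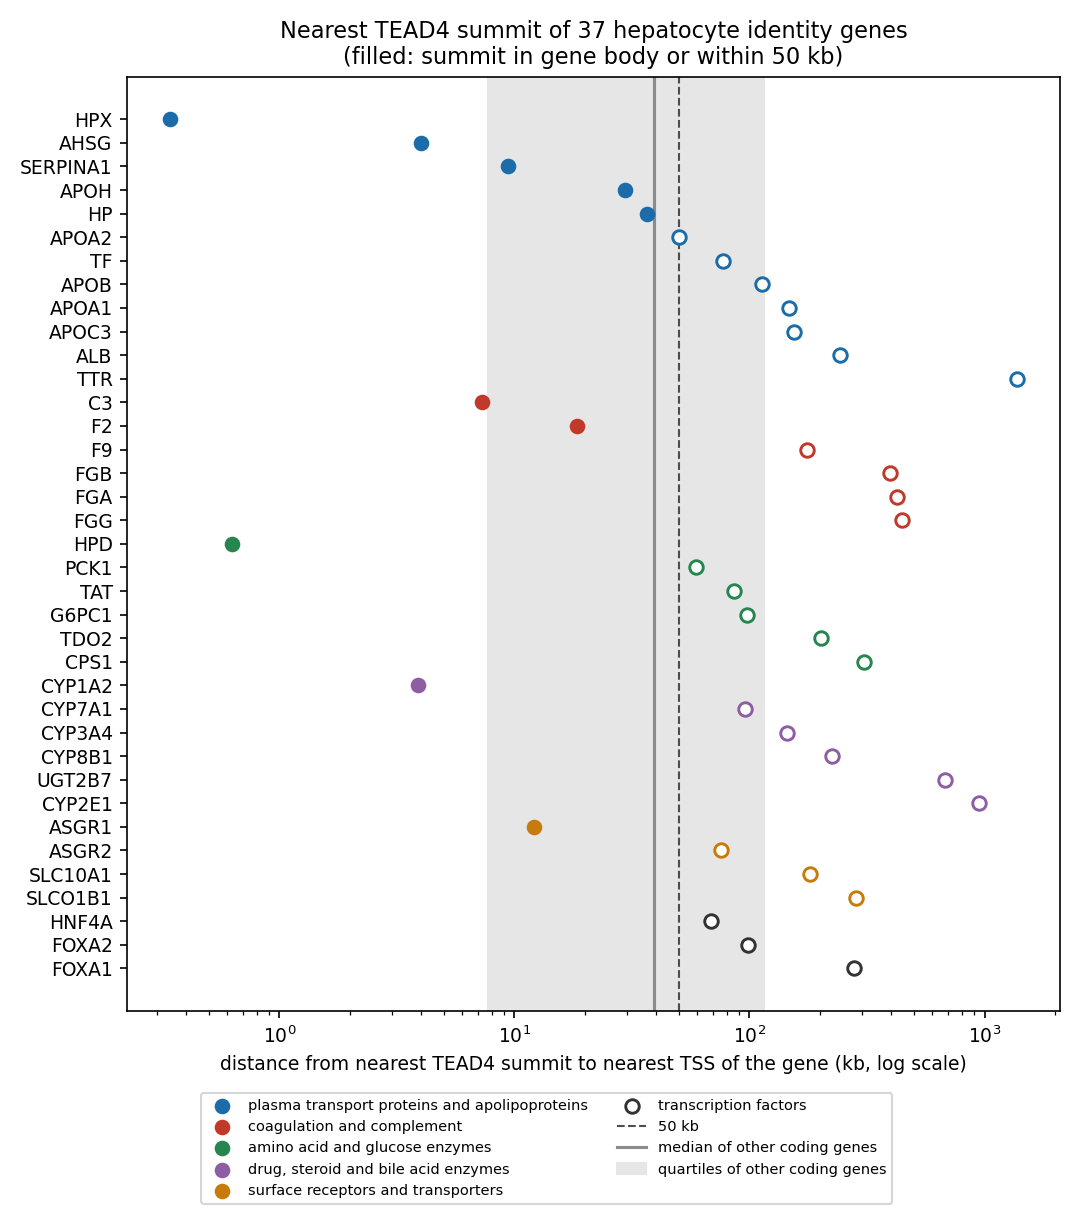
Distance in kb (log scale) from the nearest TEAD4 summit to the nearest TSS of each of the 37 hepatocyte identity genes, grouped and coloured by role, with filled circles for the 10 genes with a summit in the gene body or within 50 kb. The grey line and band mark the median (39.4 kb) and quartiles of the other protein-coding genes, and 27 of the 37 circles lie to the right of the line, out to TTR at 1379.7 kb.

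The sequences around 7 of the assigned summits are printed because they hold motifs found at these genes. The search ran over both strands, up to 100 bp from a summit, for ACATTCC (TEAD), for TGACTCA and TGAGTCA (AP-1), which are each other's reverse complement, the FOXA motif TGTTTAC, the HNF4A motif CAAAGTCCA, the C/EBP motif TTGCNNAA and an HNF1 motif, GTTAAT and ATT with 1 base of any kind between them. Capitals mark the matched motif, which is GGAATGT where a TEAD match lies on the opposite strand, and coordinates are those of hg38.
SERPINA1 peak, plus strand (chr14:94373839-94373959): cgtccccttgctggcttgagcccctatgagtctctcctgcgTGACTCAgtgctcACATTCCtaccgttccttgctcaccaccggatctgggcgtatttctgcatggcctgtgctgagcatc
HPD peak, plus strand (chr12:121859429-121859549): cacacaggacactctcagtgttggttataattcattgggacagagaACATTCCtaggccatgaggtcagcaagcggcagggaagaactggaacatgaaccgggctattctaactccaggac
ASGR1 peak within DLG4, plus strand (chr17:7215167-7215287): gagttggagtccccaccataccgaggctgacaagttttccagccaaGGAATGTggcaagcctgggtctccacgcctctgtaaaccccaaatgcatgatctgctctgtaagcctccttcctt
overlapping ASGR1 peak within DLG4, plus strand (chr17:7215399-7215519): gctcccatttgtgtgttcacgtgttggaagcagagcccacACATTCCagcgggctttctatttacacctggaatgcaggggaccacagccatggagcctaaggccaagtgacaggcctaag
CYP1A2 peak, plus strand (chr15:74752655-74752775): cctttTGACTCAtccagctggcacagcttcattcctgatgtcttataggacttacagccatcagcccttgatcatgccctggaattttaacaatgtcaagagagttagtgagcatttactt
C3 peak within SH2D3A, plus strand (chr19:6766007-6766127): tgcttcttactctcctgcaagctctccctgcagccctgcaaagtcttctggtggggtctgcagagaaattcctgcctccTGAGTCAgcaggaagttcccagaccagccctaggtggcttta
HP peak within TXNL4B, plus strand (chr16:72092840-72093040): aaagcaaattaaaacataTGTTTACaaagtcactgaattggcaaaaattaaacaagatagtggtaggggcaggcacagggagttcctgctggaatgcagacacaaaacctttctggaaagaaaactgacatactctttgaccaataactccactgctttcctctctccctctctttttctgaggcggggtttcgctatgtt

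In these sequences the TEAD match was centred 3 bp from the SERPINA1 summit, 11 bp from the HPD summit and 11 and 17 bp from the pair of ASGR1 summits. The SERPINA1 peak was the only one of the 18 with both a TEAD and an AP-1 match, and their centres lay 3 and 16 bp from the summit on the same side. AP-1 matches lay 52 bp from the CYP1A2 summit and 22 bp from the second strongest C3 summit. Among peaks not printed, the strongest C3 peak held an AP-1 match 57 bp from its summit and the APOH peak held one at 94 bp. The FOXA match at HP lay 79 bp from its summit. None of these matches shows binding of the named factor.

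The roles held 3 to 12 genes each. Their counts, to be read beside the 56.2% of all protein-coding genes with a summit, are descriptions and were not tested. Plasma transport proteins and apolipoproteins were the role with the most peaks, with a summit assigned to 5 of 12 genes and a median nearest distance of 63.7 kb. HPX encodes hemopexin, the plasma scavenger of heme. Its peak (chr11:6431875-6432074, signal value 105.7) had its summit in a coding exon, 341 bp from the TSS of a short transcript without a coding sequence and 9009 bp downstream of the canonical TSS. By the canonical TSS, HPX had no promoter peak. AHSG encodes fetuin-A, an inhibitor of calcification. It had a weak intronic peak 4029 bp downstream of its canonical TSS, with a signal value of 33.8, the lowest of the 18, in an interval where the lncRNA HRG-AS1 also runs. The stronger AHSG peak, with a signal value of 154.1, lay 42729 bp upstream and only 13 bp from a TSS of TBCCD1.

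SERPINA1, which encodes alpha-1-antitrypsin, the main plasma inhibitor of neutrophil elastase, had the second strongest peak of the set. This peak (chr14:94373762-94374039, signal value 176.2, above 88.2% of all peaks) was intergenic, 14703 bp downstream of the canonical TSS and beyond the 3′ end of the gene, with the TSS of its paralog SERPINA2 as the nearest, at 7201 bp. HP encodes haptoglobin, which binds free haemoglobin, and its summit (signal value 81.2) lay 612 bp from the TSS of TXNL4B, in an intron of that gene. APOH, a phospholipid-binding plasma glycoprotein, had a weak peak (signal value 37.02) in an intron of CEP112, 460 bp from the TSS of that gene. For HP and APOH, then, the assigned peak was a promoter-near peak of a neighbour.

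The other 7 members of this role had no assigned peak. ALB, the gene of serum albumin, was 242.2 kb from the nearest summit, and 89.3% of other coding genes had one nearer. TTR, which encodes the thyroxine and retinol carrier transthyretin, was the most distant member at 1379.7 kb, and 99.3% of other genes had a nearer summit. That summit was itself 829.6 kb from the closest coding TSS, that of DSC3. APOA1 and APOC3, neighbouring genes of high-density and triglyceride-rich lipoproteins, were measured to the same strong summit (signal value 332.3) at 147.2 and 154.2 kb, which lay 27.7 kb from a TSS of SIK3. APOB, the structural protein of very low-density lipoprotein, was 112.8 kb from a summit and TF, the iron carrier transferrin, 77.1 kb. APOA2, another high-density lipoprotein component, lay just beyond the limit, and its nearest summit lay 731 bp from a TSS of B4GALT3.

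Coagulation and complement genes split widely, with 2 of 6 assigned a summit and a median distance of 286.6 kb. C3, the central complement component, had 4 assigned peaks, the most of any member, and all lay upstream. The strongest had a signal value of 235.5, the highest of the 18 peaks and above 93.6% of all peaks. It lay 24472 bp upstream of the C3 canonical TSS in a UTR or non-coding exon of TRIP10, and a second summit of 46.2 in the same interval (chr19:6744958-6745353) lay 211 bp from it. The other C3 peaks had signal values of 99.7, in an intron of SH2D3A, and 58.3, at 65 bp from a TSS of TRIP10. No C3 peak had C3 as its nearest coding TSS. F2 encodes prothrombin, and its only peak (signal value 44.9) lay 18400 bp upstream of the canonical TSS and 194 bp from a TSS of ARHGAP1.

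The fibrinogen chains FGA, FGB and FGG form 1 cluster on chromosome 4 and were measured to the same summit, at 425.3, 397.6 and 444.4 kb. Of other genes, 95.1 to 95.8% had a nearer summit than these 3. F9, the gene of coagulation factor IX on chromosome X, was 175.7 kb from a summit. The FGA promoter is shown because it held a TEAD match although no summit lay near it. In its coding-strand sequence, the TEAD match (GGAATGT) is centred 223 bp before the TSS, the C/EBP match 137.5 bp and the HNF1 match 51.5 bp before it, all in capitals.
FGA promoter, minus strand (chr4:154590743-154590992): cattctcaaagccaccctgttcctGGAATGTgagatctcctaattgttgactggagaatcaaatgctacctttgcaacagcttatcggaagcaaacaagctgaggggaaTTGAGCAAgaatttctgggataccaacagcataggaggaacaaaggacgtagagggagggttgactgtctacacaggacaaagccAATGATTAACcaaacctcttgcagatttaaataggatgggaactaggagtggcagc

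Among the enzymes of amino acid and glucose metabolism, only HPD had peaks, 1 of 6 genes, and the median distance was 91.6 kb. HPD encodes 4-hydroxyphenylpyruvate dioxygenase, which acts in tyrosine breakdown. Its strongest peak (chr12:121859387-121859583, signal value 110.8, above 74.0% of all peaks) lay 630 bp upstream of the canonical TSS, within an intron of a longer HPD transcript, and held the TEAD match shown above. It was the only peak of the 18 within 2.5 kb of the canonical TSS of a member. HPD also had a weak peak at its 3′ end (signal value 36.6) and another 47068 bp upstream in an intron of PSMD9 (signal value 36.9), with scores of 856 and 904, the lowest of the set. TAT, the first enzyme of tyrosine breakdown, had no assigned peak and was 85.7 kb from a summit. PCK1 and G6PC1, which catalyse steps of gluconeogenesis, were 59.5 and 97.5 kb away. TDO2, which opens the tryptophan ring, and CPS1, which starts the urea cycle, were 201.2 and 307.2 kb away. For TAT, G6PC1 and CPS1, the nearest summit lay within 340 bp of a TSS of another gene (ZNF19, RPL27 and KANSL1L).

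Enzymes of drug, steroid and bile acid metabolism had a summit at 1 of 6 genes and a median distance of 184.2 kb. CYP1A2, which metabolises caffeine and aromatic amines, had a single intronic peak (chr15:74752604-74752838, signal value 149.97, above 84.4% of all peaks), 3870 bp downstream of its only TSS. The peak held an AP-1 but no TEAD match, and CYP1A2 was the coding gene nearest to it. CYP7A1, the rate-limiting enzyme of classical bile acid synthesis, was 95.9 kb from a summit, and CYP8B1, which sets the share of cholic acid, 223.9 kb. CYP3A4, the main drug-metabolising cytochrome of the liver, was 144.5 kb from a strong summit (signal value 354.1) that lay 2220 bp from a TSS of ZSCAN25. CYP2E1, which oxidises ethanol, and UGT2B7, which conjugates steroids and bile acids, were 945.5 and 681.7 kb away. Of the other coding genes, 98.6 and 97.8% had a nearer summit than these.

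Surface receptors and transporters had a summit at 1 of 4 genes and a median distance of 128.7 kb. ASGR1, the major subunit of the asialoglycoprotein receptor that clears desialylated glycoproteins, had 3 peaks with signal values of 83.3, 53.0 and 45.8. All lay 12283 bp or more upstream of its canonical TSS and had DLG4 as the nearest coding gene, at 557, 1315 and 1547 bp. The last pair had overlapping intervals with a different copy of the TEAD motif each. ASGR2, its partner subunit, was measured to the first of these summits, at 76.0 kb. SLC10A1, the sodium-dependent bile acid importer, and SLCO1B1, an importer of bilirubin and statins, were 181.4 and 282.6 kb from a summit.

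None of the 3 hepatocyte transcription factors had an assigned peak, against 56.2% of all protein-coding genes with one, and 3 genes are too few to read this as a result. HNF4A was 68.3 kb from a summit, FOXA2 98.7 kb and FOXA1 278.9 kb. The summit nearest to FOXA2 had FOXA2 as its nearest coding gene, the only such case among the 27 members without an assigned peak. Those 27 genes were measured to 24 different summits, whose signal values ran from 35.5 to 354.1 with a median of 62.2. FOXA1 and FOXA2 were also the only members with a CpG-rich promoter, with CpG ratios, observed over expected, of 0.865 and 0.672.

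The peaks that were assigned mostly belonged, by position, to other genes. Of the 18 peaks, which form 16 separate regions, 5 had a member as the gene with the nearest coding TSS (27.8%, interval 12.5 to 50.9%), at AHSG, HPX, HPD and CYP1A2. Counted as pairs of a gene and a peak, the gene was the nearest in 5 of 18 pairs for the members and in 54.8% of 28821 pairs for the other genes. The remaining 13 peaks had another coding gene nearest, and 11 of them lay within 2 kb of a TSS of that gene. With the HPX and HPD peaks, 13 of 18 (72.2%, interval 49.1 to 87.5%) were within 2 kb of some coding TSS, against 22.4% of the 16028 peaks assigned to any coding gene, a comparison chosen after the values were seen. Counting a summit only for the coding gene nearest to it left 4 of 37 members with a peak (10.8%), against 32.9% of other genes.

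**Figure D2:**
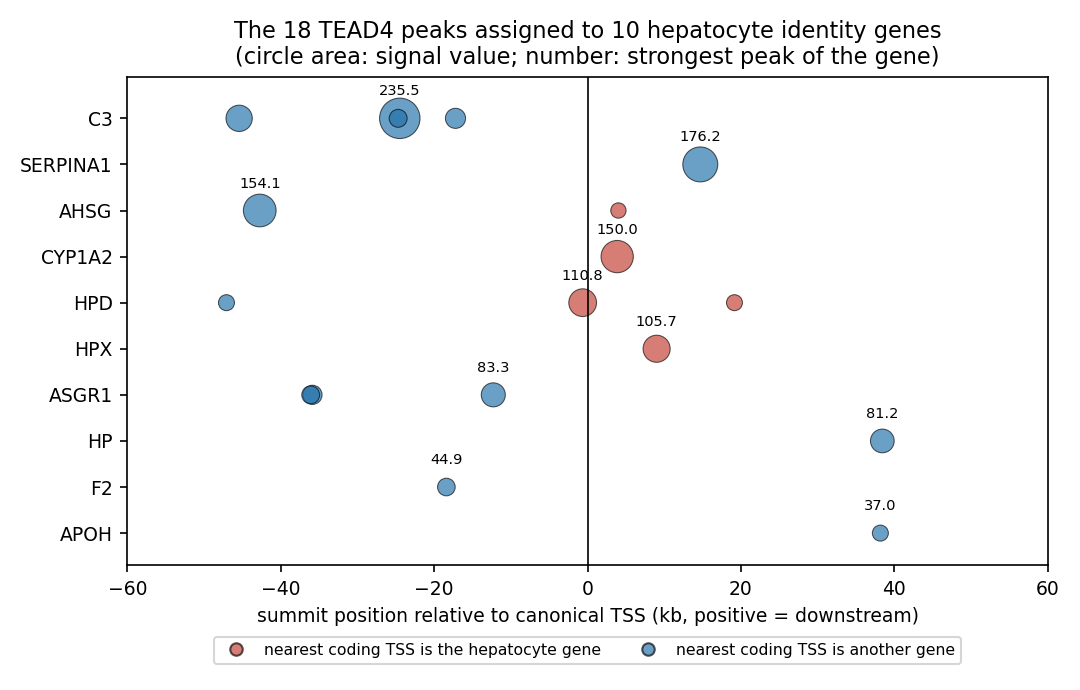
Position of the 18 assigned TEAD4 summits relative to the canonical TSS of the 10 genes (kb, positive downstream), with circle area proportional to the signal value and the value of each gene's strongest peak printed above it. The 5 red circles are peaks whose nearest coding TSS is the hepatocyte gene, and the 13 blue circles, which include the strongest peak at 235.5 near C3, are nearest to another gene.

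The signal of the assigned peaks spread over the range of the list. The median signal value, the peak caller's measure of enrichment, was 69.8 for the 18 peaks (95% interval of the median 44.9 to 110.8) and 67.3 for peaks at the other genes (66.4 to 68.3), so the difference was smaller than the interval. The middle of the distribution was alike, with quartiles of 45.1 and 109.6 against 45.8 and 112.3. For the 5 peaks nearest to a member the median was 105.7, against 67.3 for the peaks of other genes counted in the same way. The member peaks ran from 33.8 to 235.5, while the whole list ran from 6.57 to 1074. Of the 18, 6 exceeded 100 and 1, near C3, exceeded 200. The highest score of 1000, which marks the peaks that repeated best between the replicates, was given to 12 of 18 (66.7%), against 76.1% of all peaks. All 18 had the same −log10 q-value of 4.76.

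Motif content was close to that of the list. A TEAD match was found in 4 of 18 peaks (22.2%, interval 9.001 to 45.2%, in 3 separate regions), against 22.97% of all peaks, and an AP-1 match in 5 (27.8%, interval 12.5 to 50.9%), against 25.4%. The FOXA match at HP was the only one (5.56%, against 3.52%). No peak had an HNF4A or HNF1 match, which were rare in the whole list (0.242 and 0.246%). A C/EBP match was found in 0 of 18 peaks, which allows a share of up to 16.7%, against 12.7% of all peaks, so a lower share was not detectable with 18 peaks. Of the 18 peaks, 9 held none of these motifs.

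Hepatocyte identity genes differ from other genes in promoter type and size. Among the other genes, the share with a peak was higher for CpG-rich than for CpG-poor promoters (60.6 against 47.7%) and for longer genes. Among the members it was lower for longer genes, and too few had a CpG-rich promoter to compare. A CpG-rich promoter, defined by an observed/expected CpG ratio over 0.6 in the 500 bp on either side of the canonical TSS, was present in 2 of 37 members (5.41%) and 66.4% of the others, and the median gene length was 14.4 against 27.5 kb. Among CpG-poor genes, 10 of 35 members (28.6%, interval 16.3 to 45.1%) and 47.7% of 6708 others had a summit. Among genes shorter than the median of 27.466 kb, 8 of 25 members (32.0%, interval 17.2 to 51.6%) and 50.8% of others had one, and among longer genes 2 of 12 (16.7%, interval 4.70 to 44.8%) and 61.7%. With both restrictions, CpG-poor and short, the shares were 8 of 23 members (34.8%, interval 18.8 to 55.1%) and 43.7% of 4428 others, and the interval of the members included the value of the others. Among CpG-poor longer genes they were 2 of 12 and 55.5%. For this share the direction was the same in every class that held 10 or more members. The size of the gap ran from 8.94 to 45.1 percentage points. For a summit within 2.5 kb of a TSS the direction was not the same throughout. Among CpG-poor, short genes, 2 of 23 members (8.70%) and 306 of 4428 others (6.91%) had one, while members were lower in every other class. Among all CpG-poor genes the shares were 5.71 and 10.2%.

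**Figure D3:**
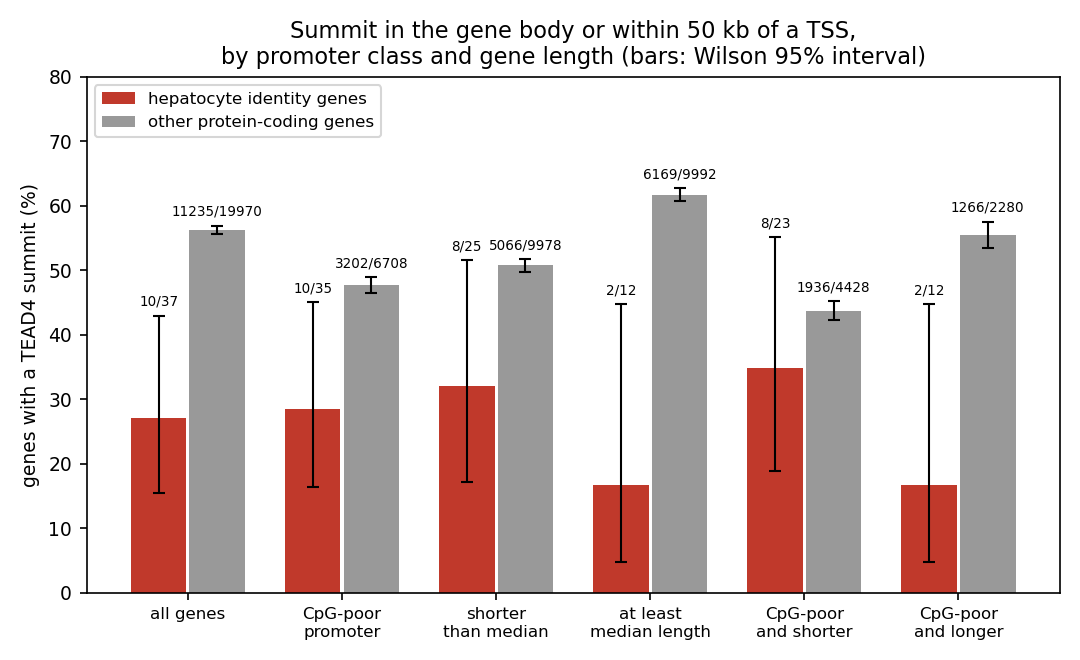
Share of genes (%) with a TEAD4 summit in the gene body or within 50 kb of a TSS, for hepatocyte identity genes (red) and other protein-coding genes (grey), over all genes and within classes of promoter and gene length, with Wilson 95% intervals as error bars and counts above them. The red bar is lower in each pair, and for CpG-poor, shorter genes (8 of 23 against 1936 of 4428) its interval spans the grey bar.

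The number of coding neighbours was also considered, since peaks of neighbours were counted. Members and other genes both had a median of 1 other coding gene with its canonical TSS within 50 kb. Members with 0 to 2 neighbours had a summit in 6 of 27 cases (22.2%, interval 10.6 to 40.8%), against 55.8% of others. Those with 3 or more had one in 4 of 10 (40.0%, interval 16.8 to 68.7%), against 57.5% of others, which lies within that interval. In the 4.09 Mb searched around the members there were 4.403 peaks per Mb (Poisson 95% interval 2.61 to 6.96), against 8.86 per Mb around other genes (8.73 to 9.003), a measure added after the values were seen.

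Further genes with hepatocyte functions, outside the 37, lay between these and the other genes. Of 138 such genes, 58 had a summit (42.03%, interval 34.1 to 50.4%) and 12 had one within 2.5 kb of a TSS (8.70%, against 16.7% of other genes). The median distance was 78.7 kb and the density 7.005 peaks per Mb. Those 12 included VTN, which encodes vitronectin (103 bp from a TSS, signal value 203.6), and AKR1D1, a reductase of bile acid synthesis (81 bp, signal value 306.8), both with a TEAD match. The AKR1D1 peak lay at an alternative TSS, and the nearest summit was 21087 bp from the canonical TSS. The bile acid enzyme CYP27A1 had one 547 bp from an alternative TSS with a signal value of 95.3, and its canonical TSS was 24314 bp from a summit. Measured from the canonical TSS, 6 of the 138 genes had a summit within 2.5 kb (4.35%), against 2196 of 19970 other genes.

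Gene lists of other liver cell types ranged on both sides of the background, the 56.2% of all protein-coding genes with a summit. Of 37 stellate and myofibroblast genes, 31 had a summit (83.8%, interval 68.9 to 92.3%), and the median distance was 1.885 kb. A summit lay within 2.5 kb of a TSS for 19 of them (51.4%), against 16.7% of all protein-coding genes. Measured from the canonical TSS, the count was 13 of 37 (35.1%), against 1 of 37 hepatocyte identity genes and 2196 of the 19970 others. The stellate and myofibroblast list included the TEAD targets CCN1 and CCN2, with strongest signal values of 573.0 and 617.2. Summits were found for 22 of 30 cholangiocyte genes (73.3%, interval 55.6 to 85.8%) and 15 of 30 Kupffer cell genes (interval 33.2 to 66.8%). The intervals of the hepatocyte identity genes and of the Kupffer cell genes overlapped, and the former did not overlap those of the cholangiocyte and stellate lists. The gene was the nearest to its peak in 138 of 167 peaks at stellate and myofibroblast genes (82.6%), against 5 of 18 at hepatocyte identity genes, while the median signal values were 77.2 and 69.8. These 2 lists also differed in structure, and the comparison was not adjusted for it. The stellate and myofibroblast genes had a median of 0 coding neighbours within 50 kb, against 1 for the hepatocyte identity genes. Their median length was 26.1 kb, against 14.4 kb, and 37.8% had a CpG-rich promoter, against 5.41%.

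**Figure D4:**
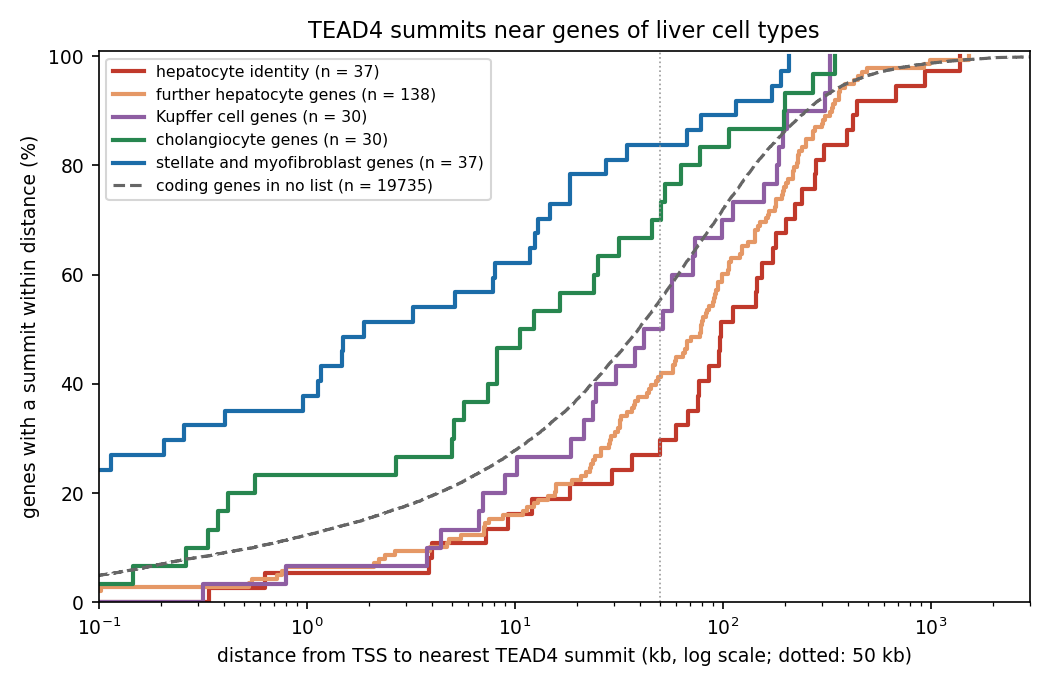
Cumulative share of genes (%) with a TEAD4 summit within a given distance (kb, log scale) of a TSS, for hepatocyte identity genes, further hepatocyte genes, Kupffer cell, cholangiocyte and stellate cell lists, and all coding genes in none of them (dashed). The hepatocyte identity curve has its median at 98.7 kb and the stellate curve at 1.885 kb.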

How the data were processed

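TEAD4 ChIP-seq reads of LX-2 cells were mapped to hg38 with Chromap and compared with the ENCODE IDR pipeline by the authors, who kept replicates 1 and 3 after replicate 2 was found not concordant. The peak caller is not given in the sources used here. The deposited list holds, for each of 21113 peaks, the authors' score (the scaled IDR), the signal value (enrichment) and the −log10 q-value, and the other columns give position and summit. Column meanings were read from the layout. Depth per sample is unknown.

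Here, summits were assigned to genes of GENCODE release 44 (20007 protein-coding symbols). Bases were read from the hg38 sequence. Promoters ran from 250 bases before the canonical TSS to 50 from it. All 37 members were matched and are named. Shares are given with Wilson 95% intervals, densities with exact Poisson intervals, and medians with order-statistic intervals, which cover counting error only. No test was made, because no value per sample was analysed. The members and lists were chosen with earlier results of these data known, so the comparisons between lists are descriptions. Alternatives changed the distance, the TSSs, the peaks, the assignment, the background genes and the motif window. The assignment and motif search were tested on simulated data. Python 3.11.15, numpy 2.4.6, pandas 2.3.3, scipy 1.17.1, pysam 0.24.0 and matplotlib 3.10.9 were used.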

Additional observations from a re-analysis of the deposited data

How the results depend on the processing

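Of 33 alternatives over 6 results, 30 left the value within its 95% interval and 3 did not. This count set the member value against its own wide interval and did not use the other genes, so it says nothing on the gap. CpG-poor, shorter genes (34.8%, against 43.7% of other genes) and longer genes (16.7%, against 61.7%) were both among the 30. The share of hepatocyte identity genes with a summit rose to 51.4% with a distance of 100 kb (72.1% of other genes) and was 10.8% when each summit counted only for the nearest coding gene (32.9%). The share near a TSS was 0.0% with one TSS per gene, the 5′ end of the gene record (10.8%), and 2.70% with the canonical TSS. In each of these 4 settings of distance, assignment or TSS, the members stayed below the other genes. Merging neighbouring members into 34 loci gave 29.4%, and keeping only peaks with the highest score 21.6% (48.8% of other genes). The median signal value of the member peaks ran up to 108.3 when only the strongest peak of each gene was kept (97.5 for other genes), and was 105.7 over the 5 peaks nearest to a member (67.3). No paired analysis was possible because replicates 1 and 3 share one combined list and no result comes from a test, and omitting single replicates was likewise not possible. With 37 genes and 18 peaks, shares are known only within the wide intervals given.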

Other observations

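The promoters of the hepatocyte identity genes, from 250 bases before to 50 bases after the canonical TSS, were searched for the same motifs and for a TATA box (TATAAA on the coding strand). C/EBP matches were found in 9 of 37 (24.3%, Wilson 95% interval 13.4 to 40.1%), against 8.11% of the 20007 promoters, at AHSG, ALB, APOB, FGA, FGB, HPX, SLC10A1, TF and UGT2B7. A TATA box was also found in 9 (24.3%, against 7.11%), among them APOB, TTR, CYP3A4 and CYP7A1. FOXA matches were found at APOA2, ASGR1 and ASGR2 (8.11%, against 2.41%), HNF1 matches at FGA and G6PC1 (5.41%, against 0.270%) and an HNF4A match at AHSG (against 0.320%). TEAD matches were found at FGA and HPX (5.41%, against 2.38%) and an AP-1 match at APOH (against 3.57%). No TEAD4 summit lay within any of these windows, and the closest was the one 630 bp from the canonical TSS of HPD. The match of letters does not show that a factor binds there.

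Of the 5 further hepatocyte genes with the highest signal values, AKR1D1 was the coding gene nearest to its strongest peak, and the strongest peaks of the other 4 (SERPINF2, CYP3A5, F10 and CYP27A1) had another gene nearest. Over the whole list, 37 of 108 peaks had their own gene nearest. SERPINF2, the inhibitor of plasmin, had a peak with a signal value of 584.5 at 28129 bp, nearest to WDR81. CYP3A5 had one of 354.1 at 37321 bp, nearest to ZSCAN25, which is the summit also nearest to CYP3A4. F10 had one of 325.1 at 37804 bp, nearest to PCID2.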
